A study of Mus musculus with 2 samples.

Results

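The RNA levels of 36 genes of the machinery that releases hormone granules were followed through the cell types of mouse pancreatic islets and between 2 droplet single-cell libraries. The genes were taken by symbol from the 32285 genes of the deposited matrices, and each was found on 1 row. Both groups were mice labelled DIO: one received CDS at 10 mg/kg over 2 weeks, and the other saline over 2 weeks. The title of the series speaks of a blocker of alpha2A-adrenergic signalling that acts outside the brain, and CDS is not identified with it in the labels. Alpha2A-adrenergic receptors are known to restrain insulin release. Islets were freed with collagenase V injected through the duct. The number of mice behind each library, and whether animals were pooled, is not given in the sources used here. With 1 library per group there is no replicate of either treatment, so no difference between the CDS and saline libraries has a replicate check, and no p-value was computed. All intervals below are exact 95% intervals that cover counting error only.

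Endocrine cells store peptide hormones in dense-core granules and release them when calcium enters the cell. A vesicle SNARE on the granule (a VAMP) and target SNAREs at the plasma membrane (SNAP25 and a syntaxin) zip together and fuse the membranes. Granules are brought to the membrane by RAB3 and RAB27 GTPases and their effectors, made ready by UNC13 and CADPS priming factors, and triggered by synaptotagmins, which sense calcium. Complexins clamp and then aid the SNARE complex, SM proteins (STXBP) guide its assembly, and NSF with its NAPA and NAPB adaptors takes it apart for reuse.

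The labels call the cells islet b cells, but each cell was placed here by its own marker UMIs (barcoded tags that count captured RNA molecules once each). The CDS and saline libraries gave 3662 and 4935 beta cells (insulin), 892 and 819 alpha cells (Gcg), 390 and 464 delta cells (Sst), and 113 and 208 PP cells (Ppy). Genes outside the gates mostly fitted these names in both libraries. Irx2, a transcription factor of alpha cells, was at 126.7 CPM in CDS and 107.1 CPM in saline alpha cells, and at 6.34 and 3.20 CPM in beta cells. Hhex, a delta cell factor, was at 151 and 141 CPM in delta cells and at or under 2.12 CPM in the other endocrine classes. Irx2 was also at 42.3 and 28.2 CPM in PP cells, and Aqp3, listed as a PP gene, was at 0 in them. Non-endocrine classes compared with beta cells below were lymphoid cells (48 and 1484), macrophages (138 and 144), endothelial cells (244 and 333) and acinar cells (37 and 65). The libraries differed in depth: the median beta cell held 27498 UMIs in the CDS library and 15840 in the saline library. They held 141191447 and 124343325 UMIs over all barcodes, and 25 barcodes occurred in both.

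Different paralogs among the 4 RAB3 genes were high in different endocrine classes, so their promoter windows are shown first. The sequences are RefSeq windows of build GRCm38.p6, from 250 bases before to 50 bases after the start site, read 5′ to 3′ on the gene's strand. Capitals mark CCGCCC or its reverse complement GGGCGG (the GC box bound by SP factors) and TATAAA (the TATA box). Rab3a lies at chr8:70754453-70754752 on the plus strand (the first of 2 windows listed), Rab3b at chr4:108878820-108879119 on the plus strand, Rab3c at chr13:110280157-110280456 on the minus strand and Rab3d at chr9:21918134-21918433 on the minus strand.
Rab3a: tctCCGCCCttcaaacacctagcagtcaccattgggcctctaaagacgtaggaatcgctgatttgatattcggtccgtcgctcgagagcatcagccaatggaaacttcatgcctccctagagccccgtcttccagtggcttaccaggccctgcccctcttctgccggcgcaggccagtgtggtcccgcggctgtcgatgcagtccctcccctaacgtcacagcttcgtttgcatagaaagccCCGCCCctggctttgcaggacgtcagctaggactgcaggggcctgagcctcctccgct
Rab3b: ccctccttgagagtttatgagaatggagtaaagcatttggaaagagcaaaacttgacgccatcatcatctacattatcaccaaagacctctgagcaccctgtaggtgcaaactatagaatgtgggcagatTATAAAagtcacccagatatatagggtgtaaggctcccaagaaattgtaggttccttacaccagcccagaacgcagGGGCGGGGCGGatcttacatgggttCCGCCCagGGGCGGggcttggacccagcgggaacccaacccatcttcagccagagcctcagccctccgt
Rab3c: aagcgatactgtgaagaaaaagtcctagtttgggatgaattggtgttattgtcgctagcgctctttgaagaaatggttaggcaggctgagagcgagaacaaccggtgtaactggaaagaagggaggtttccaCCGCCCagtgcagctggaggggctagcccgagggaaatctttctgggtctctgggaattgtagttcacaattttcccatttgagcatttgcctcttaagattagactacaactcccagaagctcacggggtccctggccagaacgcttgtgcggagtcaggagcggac
Rab3d: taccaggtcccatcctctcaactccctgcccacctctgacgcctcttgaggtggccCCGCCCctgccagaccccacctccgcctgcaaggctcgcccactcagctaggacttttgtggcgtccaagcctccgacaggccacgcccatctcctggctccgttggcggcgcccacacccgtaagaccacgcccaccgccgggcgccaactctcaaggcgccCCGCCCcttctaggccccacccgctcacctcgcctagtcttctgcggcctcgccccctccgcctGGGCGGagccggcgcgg
A GC box on either strand was present in all 4, as in 35.7% of all 32851 windows and in 17 of the 25 members that had a window. A member counted if any of its windows held the motif, so a count of members and a share of windows are unlike measures. TATAAA on either strand was found in 13.6% of all windows and in 2 members, Rab3b and Stx3. In Rab3b it began 120 bases before the start site. The windows held 18, 8, 11 and 26 CpG dinucleotides in Rab3a, Rab3b, Rab3c and Rab3d, against a median of 18 over the members and 7 over all windows. The last 50 bases were found in a GENCODE transcript for Rab3a, Rab3b and Rab3d but not for Rab3c.

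The SNARE genes were shared by all 4 endocrine classes, and the levels below are given for the CDS and then the saline library of each class. CPM here means a gene's UMIs over the UMIs of its class, scaled to the usual constant total, after hormone, digestive enzyme and mitochondrially encoded genes were left out and the libraries were scaled to each other. Snap25, the target SNARE that joins the syntaxin, was at 258 and 334 CPM in alpha cells, 194 and 240.5 in delta cells, 294 and 375 in PP cells, and 268 and 351 in beta cells. It was lowest in delta and highest in PP cells of both libraries. Stx3, a syntaxin of polarised secretion, was at 80.8 and 80.1 CPM in alpha cells, 57.4 and 62 in delta cells, 62.8 and 60.01 in PP cells, and 61.1 and 55.9 in beta cells. Stx4a, the syntaxin of slower and constitutive release, was at 45.2 and 36.6 CPM in alpha cells, 51.4 and 39.4 in delta cells, 54.3 and 28.2 in PP cells, and 39.8 and 29.4 in beta cells. Stx1a, the neuronal syntaxin of fast release, was at 27.8 and 22 CPM in alpha cells, 15.7 and 18.2 in delta cells, 20.4 and 16.1 in PP cells, and 7.66 and 6.88 in beta cells. It was thus 3.63 and 3.2 times higher in alpha than in beta cells, and 2.05 and 2.64 times higher in delta than in beta cells.

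Among the vesicle SNAREs, Vamp2, the classical granule SNARE, was at 82.4 and 67.3 CPM in alpha cells, 104 and 90.5 in delta cells, 95.9 and 72.6 in PP cells, and 132 and 99.9 in beta cells. Vamp3, of endosomes and recycling vesicles, was at 35.6 and 33.8 CPM in alpha cells, 36.6 and 32.4 in delta cells, 43.7 and 36.8 in PP cells, and 44.6 and 33.9 in beta cells. Vamp8, which serves granules of many secretory cells, was at 154 and 96.6 CPM in alpha cells, 150.0 and 116 in delta cells, 192 and 128 in PP cells, and 232 and 134 in beta cells. All 4 classes thus held all 3 genes in similar proportion: Vamp8 held 48.6% to 57.9% of the family's UMIs in every endocrine class and library. UMIs are captured at the 3′ end, so a share was not divided by gene length, but capture can differ between genes, and shares are compared between classes here. The SM gene Stxbp2 was at 26.1 and 16.7 CPM in alpha cells, 21.7 and 21.7 in delta cells, 25.4 and 21.7 in PP cells, and 35 and 28 in beta cells. Stxbp3, the partner of syntaxin 4, was at 59.8 and 64 CPM in alpha cells, 62 and 66 in delta cells, 75.4 and 63.5 in PP cells, and 57 and 54.4 in beta cells. Neither SM gene differed by 2 times between an endocrine class and beta cells in both libraries.

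Calcium sensors differed by class. Syt1, the fast sensor of synapses, was at 16 and 20.8 CPM in alpha cells, 343 and 402 in delta cells, 14.1 and 13.1 in PP cells, and 2.15 and 3.14 in beta cells. It stood 160 and 128 times higher in delta than in beta cells, and made up 25.7% and 27.9% of the family's UMIs in delta cells, against 0.156% and 0.218% in beta cells. Cells of at least 2000 UMIs were thinned to 2000, which left out 16 and 19 delta cells, 64 and 79 beta cells and 2 and 586 lymphoid cells. Syt1 was then detected in 39.6% (34.6 to 44.7) and 42.5% (37.8 to 47.2) of delta cells, against 0.306% and 0.412% of beta cells and 0.223% (2 of 898) of lymphoid cells in the saline library, which should lack it. Insulin fills a large part of the 2000 UMIs of a beta cell, which lowers beta cell shares. Without thinning these shares were 74.4% and 79.3% of delta cells and 2.21% and 2.59% of beta cells. The gene lies at chr10:108497650-109010982 on the minus strand (build mm10). Syt4, a member that does not bind calcium in all its domains, was at 112 and 89.9 CPM in alpha cells, 127 and 116 in delta cells, 159 and 142 in PP cells, and 406 and 321 in beta cells. Its levels in alpha, delta and PP cells were 0.276 to 0.441 of those in beta cells.

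Syt5, found on dense-core vesicles, was at 32.5 and 23.8 CPM in alpha cells, 97.2 and 84 in delta cells, 12.7 and 16.1 in PP cells, and 57.9 and 48.1 in beta cells. Delta cells were highest and PP cells lowest, at 0.219 and 0.336 of the beta cell level. Syt7, a high-affinity sensor of slow release, was at 207 and 244 CPM in alpha cells, 185 and 196 in delta cells, 219 and 254 in PP cells, and 261 and 297 in beta cells. Syt13, which lacks calcium-binding residues, was at 556 and 592 CPM in alpha cells, 581 and 643 in delta cells, 657 and 700.5 in PP cells, and 652 and 768 in beta cells. Neither differed by 2 times between an endocrine class and beta cells in both libraries. Doc2b, a high-affinity calcium sensor, reached at most 6.52 CPM in any of the 4 classes. It was at 5.18 CPM in CDS and 6.52 CPM in saline beta cells, and at or under 2.53 CPM in the others.

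The RAB GTPases and their effectors also divided by class. Rab3a, the RAB of granule docking in neurons, was at 36.5 and 29.1 CPM in alpha cells, 90.8 and 87.2 in delta cells, 76.2 and 68.1 in PP cells, and 123 and 80.4 in beta cells. Rab3b was at 21.3 and 31.3 CPM in alpha cells, 128 and 139 in delta cells, 46.5 and 46.9 in PP cells, and 28.5 and 25.5 in beta cells. Rab3c was at 261 and 316 CPM in alpha cells, 32.7 and 28.4 in delta cells, 113 and 132 in PP cells, and 6.74 and 10.1 in beta cells. Delta cells were highest in Rab3b and alpha cells in Rab3c, in both libraries, whereas Rab3a was highest in beta cells of the CDS library and in delta cells of the saline library. Rab3d, known from zymogen granules, was at 32.3 and 26.6 CPM in alpha cells, 38 and 36.9 in delta cells, 36 and 44.4 in PP cells, and 130.0 and 119 in beta cells, highest in beta cells of both libraries. Rab3c held 74.3% and 78.4% of the RAB3 UMIs in alpha cells and 2.34% and 4.31% in beta cells. Rab3b held 44.3% and 47.7% in delta cells, whereas in beta cells Rab3d held 45.1% and 50.7% and Rab3a 42.7% and 34.2%. In PP cells Rab3c held 41.6% and 45.3%. Rab3c was detected in 34.1% and 38.9% of thinned alpha cells, in 1.06% and 1.13% of beta cells, and in 0.668% of saline lymphoid cells.

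**Figure D1:**
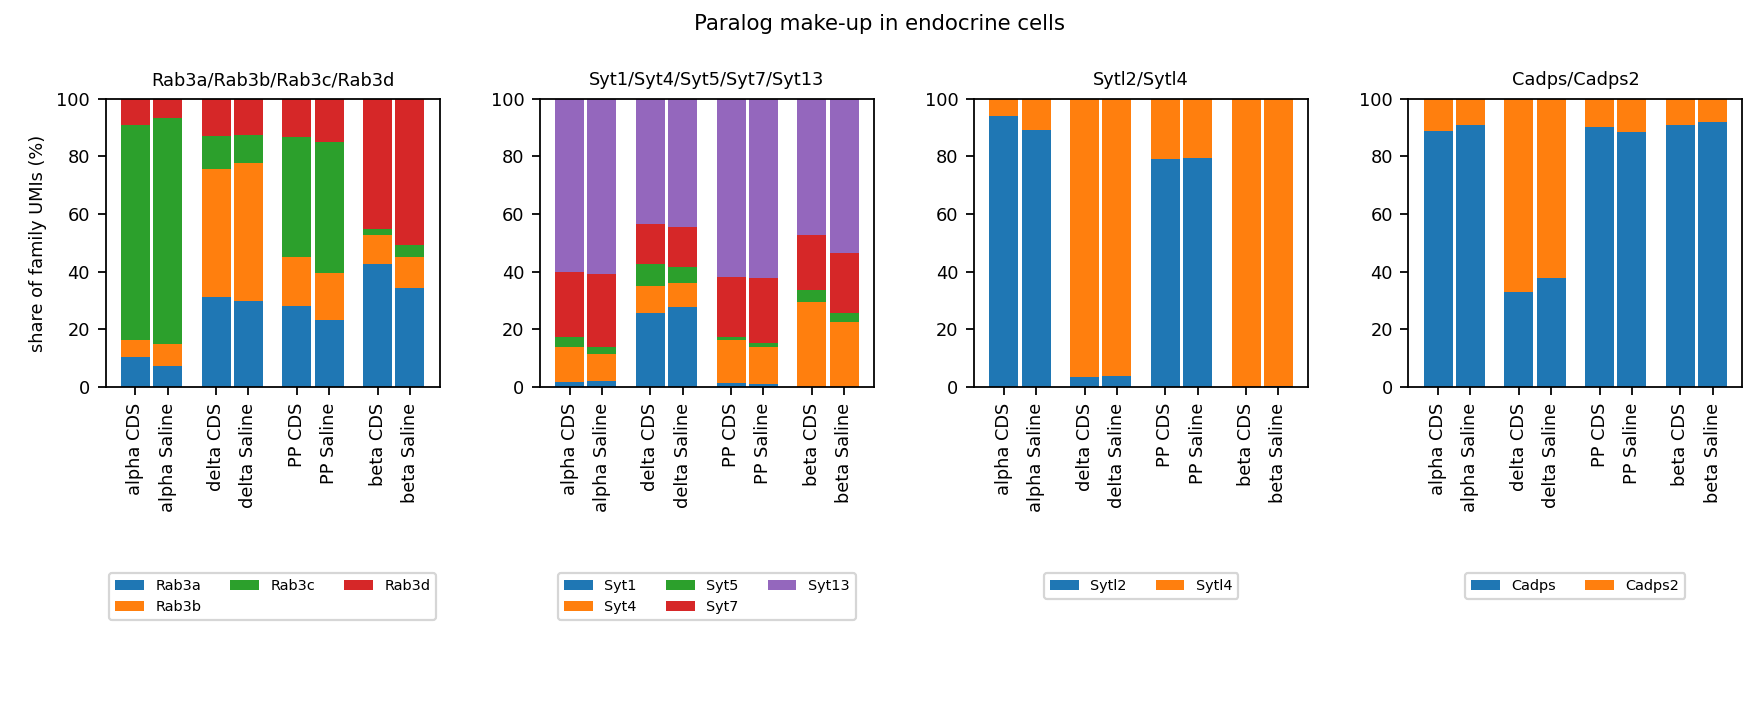
Stacked bars of the share of UMIs (%) held by each paralog of 4 families, in CDS (left bar of each pair) and saline cells of the alpha, delta, PP and beta classes. Rab3c holds 74.3% and 78.4% of RAB3 UMIs in alpha cells, Syt1 25.7% and 27.9% of the synaptotagmin UMIs in delta cells, and Cadps2 67.1% and 62.2% of the CADPS UMIs in delta cells.

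Rab27a, the RAB on mature granules, was at 273 and 324 CPM in alpha cells, 247 and 289 in delta cells, 192 and 295 in PP cells, and 228 and 271 in beta cells. Rab27b was at 52.4 and 71.6 CPM in alpha cells, 5.3 and 8.97 in delta cells, 40.9 and 69.6 in PP cells, and 3.36 and 3.68 in beta cells. Rab27a was shared by all classes, whereas Rab27b was 15.6 and 19.4 times higher in alpha than in beta cells, and 12.2 and 18.9 times higher in PP than in beta cells. The synaptotagmin-like effectors of RAB27 split almost fully by class. Sytl2 was at 45.3 and 51.3 CPM in alpha cells, 0.23 and 0.498 in delta cells, 43 and 52.5 in PP cells, and 0.334 and 0.684 in beta cells. Sytl4, known as granuphilin, docks insulin granules in mouse beta cells and was at 2.94 and 6.22 CPM in alpha cells, 6.22 and 12 in delta cells, 11.3 and 13.6 in PP cells, and 154 and 180.4 in beta cells. Sytl4 held 99.8% and 99.6% of the pair's UMIs in beta cells, and Sytl2 held 93.9% and 89.2% in alpha cells and 79.2% and 79.4% in PP cells. In delta cells Sytl2 was near 0, and both genes were low.

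Free RNA from lysed cells can reach other droplets, so Sytl4 was set beside 3 beta cell genes outside the exocytosis list. Sytl4 in alpha cells was 1.91% and 3.45% of its beta cell level, beside 2.27% and 2.67% for Mafa, a beta cell transcription factor, 1.54% and 3.6% for Slc2a2, the glucose transporter, and 2.22% and 4.65% for Ucn3, a beta cell peptide. In delta cells Sytl4 was at 4.04% and 6.63%, beside a range of 4.17% to 4.85% in the CDS library and 4.97% to 7.85% in the saline library for the same 3 genes. In PP cells Sytl4 was at 7.32% and 7.55%, beside 2.05% to 7.34% in the CDS library and 2.83% to 5.04% in the saline library. Sytl4 thus lay within or under the range of the 3 genes in alpha and delta cells and in CDS PP cells, and above it in saline PP cells. Slc30a8, Iapp and Nkx6-1, also listed as beta cell genes, were not in that range and would widen it. Slc30a8 was at 844 and 991 CPM in alpha cells and 350 and 476 CPM in beta cells. Iapp was at 53340 and 41090 CPM in delta cells and 131300 and 74590 CPM in beta cells. Nkx6-1 was at 93.1 and 93.3 CPM in PP cells and 227 and 203.5 CPM in beta cells. The part of free RNA in the Sytl4 levels was not tested.

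The remaining RAB effectors were broader. Rims2, a scaffold of release sites, was at 622 and 804 CPM in alpha cells, 365 and 511 in delta cells, 412 and 588 in PP cells, and 284 and 428 in beta cells. Rims1 was at 4.65 and 4.97 CPM in alpha cells, 20.3 and 26.7 in delta cells, 0 and 2.52 in PP cells, and 0.397 and 0.603 in beta cells. Rims1 stood 51.1 and 44.2 times higher in delta than in beta cells but held 5.27% and 4.96% of the pair's UMIs there. Rph3al, known as Noc2, binds RAB3 and RAB27 and was at 316 and 395 CPM in alpha cells, 352 and 484 in delta cells, 289 and 395 in PP cells, and 255 and 325 in beta cells. Exph5, a RAB27 effector, was at 25.1 and 35.9 CPM in alpha cells, 41.5 and 55.8 in delta cells, 46.5 and 62.5 in PP cells, and 62.9 and 82.3 in beta cells. Exph5 in alpha cells was 0.399 and 0.436 of the beta cell level.

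Of the priming factors, Unc13a was at 78.7 and 92.4 CPM in alpha cells, 71.9 and 74.5 in delta cells, 57.8 and 62.5 in PP cells, and 66.2 and 66 in beta cells. Unc13b was at 130.5 and 193 CPM in alpha cells, 86.9 and 107 in delta cells, 80.4 and 128 in PP cells, and 90.6 and 133 in beta cells. Unc13b's share of the pair's UMIs, 54.7% to 67.6%, varied little over the classes and libraries. Cadps, which primes dense-core granules, was at 564 and 857 CPM in alpha cells, 43.1 and 80.5 in delta cells, 492 and 838 in PP cells, and 352 and 624 in beta cells. Cadps2 was at 71.4 and 84.5 CPM in alpha cells, 88 and 133 in delta cells, 52.9 and 112 in PP cells, and 35.5 and 55.9 in beta cells. Delta cells reversed this pair: Cadps was 0.122 and 0.129 of its beta cell level there, and Cadps2 2.48 and 2.37 times its beta cell level, so that Cadps2 held 67.1% and 62.2% of the pair's UMIs in delta cells, against 9.15% and 8.22% in beta cells. A few cells held much of the remaining Cadps in delta cells: 7 of 390 CDS cells and 12 of 464 saline cells held at least 50% of its UMIs.

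Cplx2 and the disassembly genes were found in all 4 endocrine classes. Cplx2 was at 286 and 316 CPM in alpha cells, 348 and 365 in delta cells, 583 and 568 in PP cells, and 265 and 288 in beta cells, and Cplx1, which had too few UMIs to be measured, was at or under 0.367 CPM in all 4 classes. Nsf, the ATPase that pulls used SNARE complexes apart, was at 125 and 131 CPM in alpha cells, 135 and 149 in delta cells, 109 and 97.8 in PP cells, and 125 and 136 in beta cells. Its adaptors are the products of Napa and Napb. Napa was at 113 and 122 CPM in alpha cells, 99.3 and 101 in delta cells, 91 and 88.8 in PP cells, and 170.1 and 149 in beta cells. Napb was at 21.4 and 22.7 CPM in alpha cells, 10.6 and 16.7 in delta cells, 13.4 and 24.2 in PP cells, and 22.9 and 23.6 in beta cells. PP cells were highest in Cplx2, at 2.2 and 1.98 times the beta cell level. Napb in delta cells was 0.462 and 0.708 of its beta cell level. None of Cplx2, Nsf, Napa and Napb differed by 2 times in both libraries between alpha, delta or PP cells and beta cells.

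Counted over the machinery, 35 of the 36 genes had at least 50 UMIs over both libraries in each of the comparisons of alpha, delta and PP with beta cells. In alpha over beta cells, 6 genes were at least 2 times higher in both libraries (Stx1a, Syt1, Rab3c, Rab27b, Rims1, Sytl2), beside 7.94% of all genes measured, and 6 were at least 2 times lower (Syt4, Rab3a, Rab3d, Sytl4, Doc2b, Exph5), beside 10.7%. In delta over beta cells, 6 were higher (Stx1a, Syt1, Rab3b, Rab3c, Rims1, Cadps2), beside 8.34%, and 5 lower (Syt4, Rab3d, Sytl4, Cadps, Doc2b), beside 6.94%. Few cells held much of Syt1 in alpha cells, where 26 of 892 CDS and 21 of 819 saline cells held at least 50% of its UMIs. For Rab3c in delta cells, 27 of 390 CDS and 25 of 464 saline cells did. In PP over beta cells, 5 were higher (Stx1a, Syt1, Rab3c, Rab27b, Sytl2), beside 6.43%, and 5 lower (Syt4, Syt5, Rab3d, Sytl4, Doc2b), beside 5.38%. In alpha over delta cells, 4 of 34 were higher (Rab3c, Rab27b, Sytl2, Cadps), beside 5.99%, and 5 lower (Syt1, Syt5, Rab3a, Rab3b, Rims1), beside 8.08%. The median log2 fold of the members lay between -0.11 and 0.13 in these comparisons, beside -0.09 to 0.05 over all genes. When hormone and enzyme genes were kept in the denominator, 10 genes in place of 6 were higher in alpha over beta cells, since insulin enlarges the beta cell total. Summed over the 36 genes, the machinery stood at 4777 and 5636 CPM in alpha, 4236 and 4836 CPM in delta, 4713 and 5617 CPM in PP, and 4664 and 5239 CPM in beta cells. The classes of a library share that library and its free RNA, so they are not independent samples.

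**Figure D2:**
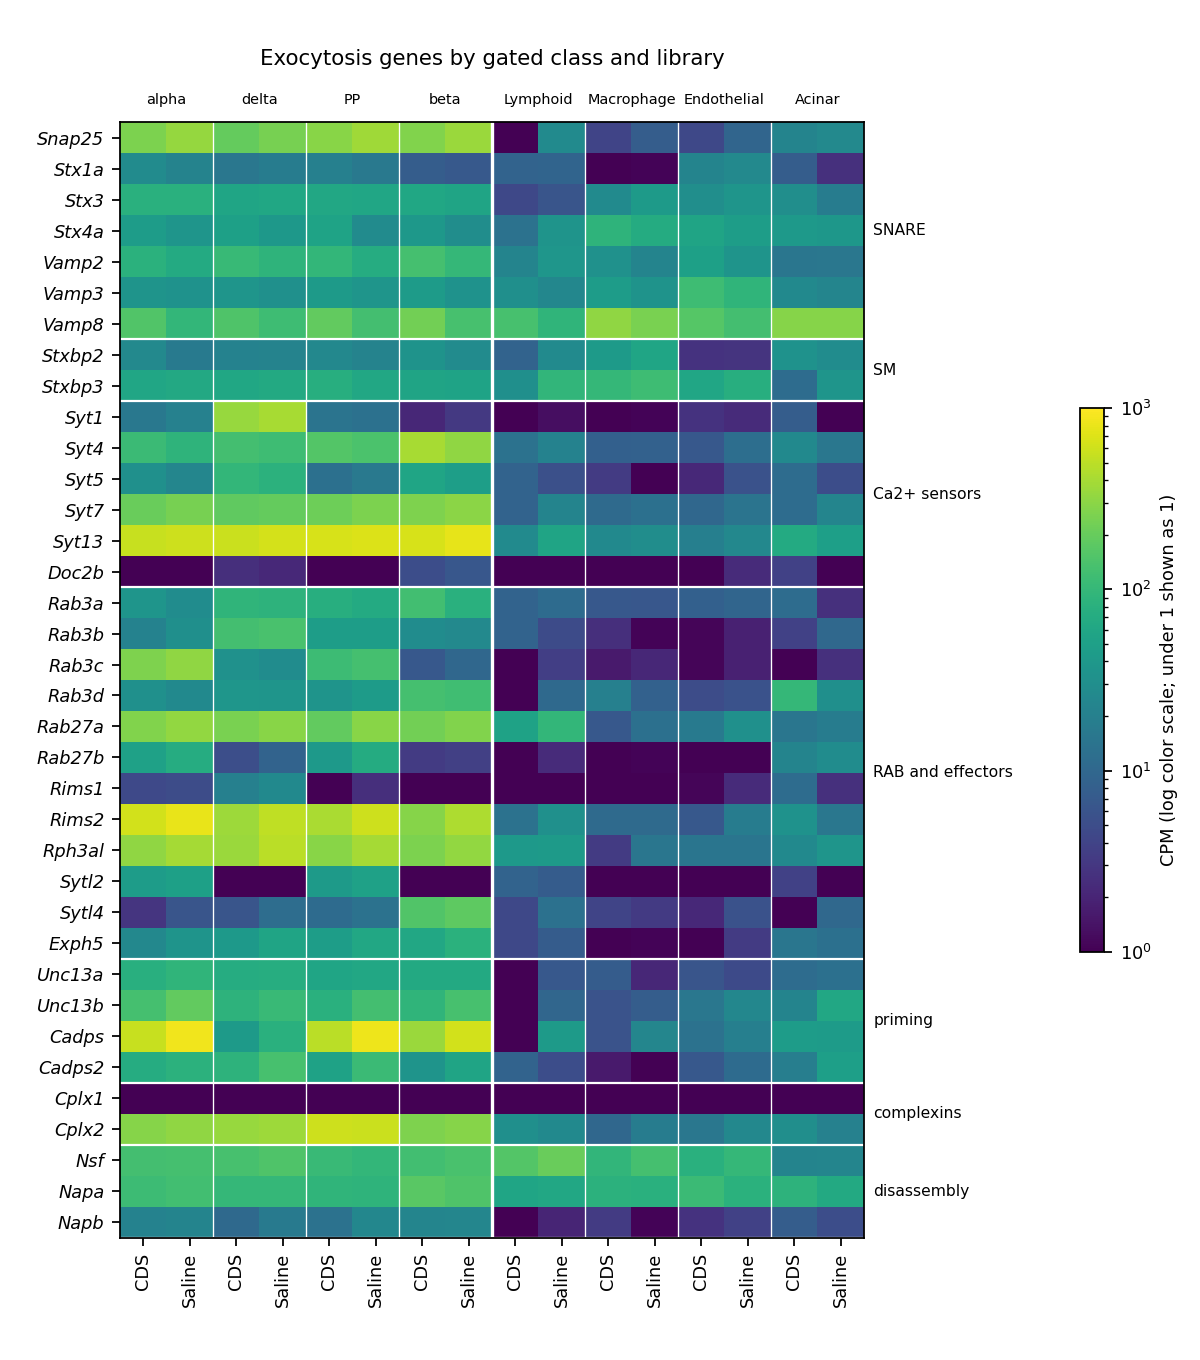
Heat map of the level (CPM, log colour scale, values under 1 drawn as 1) of the 36 genes, grouped by role, in 8 gated classes, with the CDS column left of the saline column in each. The endocrine classes share Snap25, Syt13 and Rims2, whereas Syt1 is bright in delta cells, Rab3c and Sytl2 in alpha and PP cells, and Sytl4 in beta cells.

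The summed level was far lower in lymphoid cells (717 and 1057 CPM), macrophages (980 and 977 CPM) and endothelial cells (859 and 879 CPM). Acinar, stromal and plasma cells were at 1095 and 1025, 639 and 777, and 401 and 655 CPM. Dendritic cells (9 and 85 cells) were at 1580 and 2129 CPM, and cells gated on ductal markers, described below, at 2708 and 3155 CPM. In beta over lymphoid cells, 21 of 35 measured genes were at least 2 times higher in both libraries, beside 15.9% of all genes, and 1, Sytl2, was lower, beside 13%. In beta over endothelial cells, 24 of 35 were higher, beside 25.5%, and 3 lower (Stx1a, Vamp3, Rims1), beside 14.4%. In beta over macrophages, 23 of 34 were higher, beside 25.7%, and 1, Stx4a, lower, beside 11.6%. In beta over acinar cells, 20 of 35 were higher, beside 25.5%, and 2 lower (Rab27b, Rims1), beside 4.23%. Rab27b was at 22.7 CPM in CDS and 28.5 CPM in saline acinar cells, a class of 37 and 65 cells. Several of the lower calls rest on few UMIs, given for the CDS and then the saline library. Acinar cells held 6 and 11 of Rab27b and 3 and 1 of Rims1. Endothelial cells held 2 and 5 of Rims1, and lymphoid cells held 2 and 29 of Sytl2.

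For part of what remained in these classes, the level was near that given by the ratio of granin RNA. Whether this was free RNA was not tested. The granins Chga, Chgb, Scg2 and Scg3, granule proteins of endocrine cells, were summed as a scale chosen after the data were seen. They were 29.1 and 15.7 times lower in lymphoid than in endocrine cells of the CDS and saline libraries. At that ratio saline lymphoid cells would hold 23.4 CPM of Snap25, 50.6 CPM of Syt13 and 32.3 CPM of Rims2, and 27.03, 55.9 and 31.7 CPM were measured. Nsf was instead measured at 158 CPM in CDS and 207 CPM in saline lymphoid cells, where the granin ratio gives 4.02 and 9.24 CPM. In lymphoid cells, 9 of the 36 genes had at least 50 UMIs over both libraries and stood at 2 or more times the granin ratio in both. These were Stx4a, Vamp2, Vamp3, Vamp8, Stxbp2, Stxbp3, Rab27a, Nsf and Napa. Stx1a, Sytl2, Rab3a and Rab3b were past that ratio in both libraries too, but had fewer UMIs and were not counted. CDS lymphoid values rest on few UMIs, such as 3 for Stx4a and 7 for Stxbp3.

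Macrophages held 9 genes past the same limit and minimum of UMIs, with Stx3 in place of Rab27a. Vamp8 was at 319 CPM in CDS and 247 CPM in saline macrophages, Stx4a at 89.3 CPM in CDS and 70.3 CPM in saline macrophages and Stxbp3 at 100.2 CPM in CDS and 117 CPM in saline macrophages. Endothelial cells held 12, among them Vamp3 at 118 CPM in CDS and 91.2 CPM in saline endothelial cells and Stx1a at 22.8 CPM in CDS and 25.9 CPM in saline endothelial cells. Both of these were higher there than in beta cells of either library. The genes past the limit and the minimum of UMIs in all 3 classes were Stx4a, Vamp2, Vamp3, Vamp8, Stxbp3, Nsf and Napa. They are SNAREs, an SM gene and disassembly factors with general roles in membrane traffic.

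**Figure D3:**
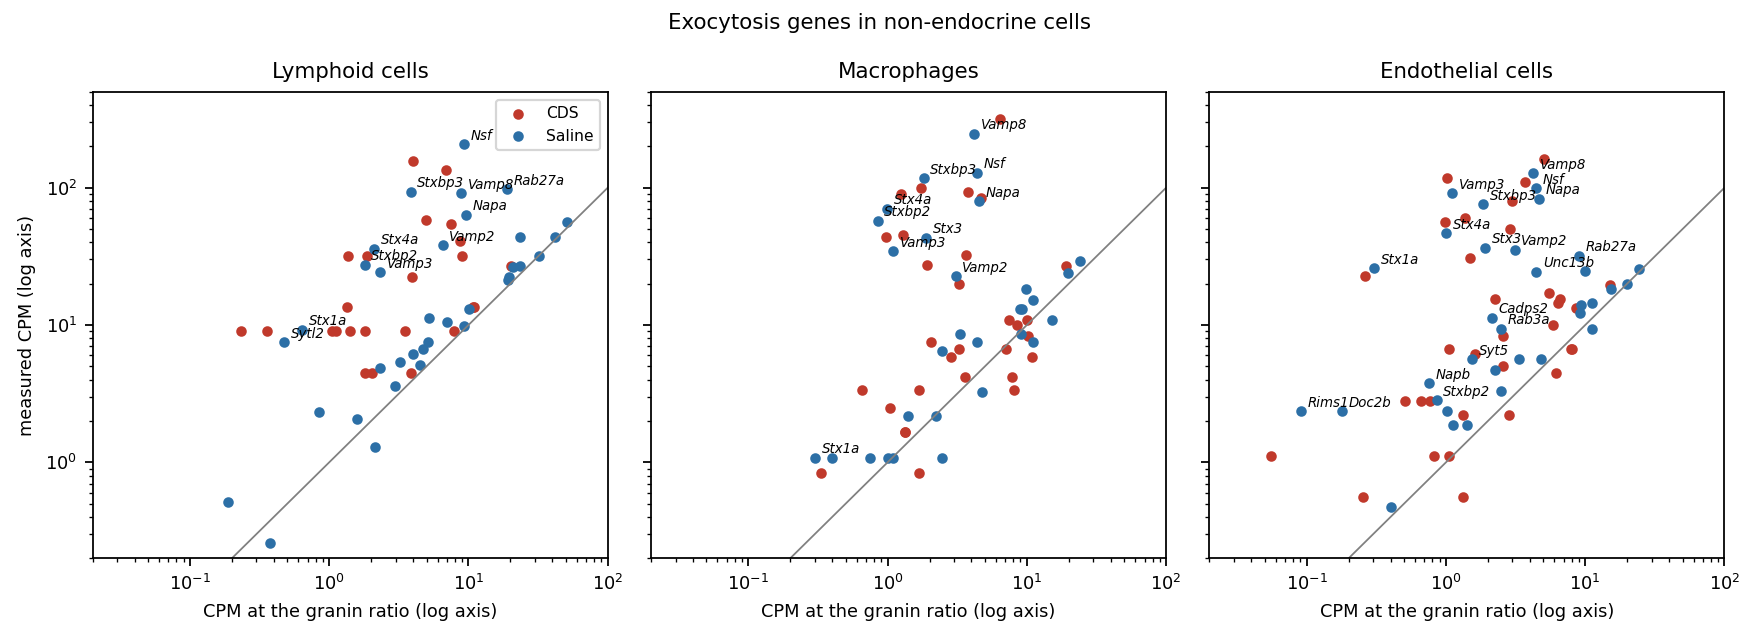
Measured level (CPM, log axis) of each exocytosis gene with at least 1 UMI in lymphoid cells, macrophages and endothelial cells against the level it would have at the granin ratio (CPM, log axis), with CDS in red and saline in blue; the line marks equal values. Snap25, Syt13 and Rims2 lie near the line in saline lymphoid cells, and Nsf, Vamp8 and Stxbp3 lie far above it.

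Between the libraries, CDS beta cells had lower CPM of Cadps, Rims2, Cadps2, Unc13b, Snap25, Exph5 and Rph3al than saline beta cells. The CDS beta cells had higher CPM of Vamp8, Rab3a, Stx4a, Vamp2, Vamp3, Syt4 and Stxbp2. CPM is a scaled share of the counted UMIs, not an amount per cell, and the CDS beta cells held more UMIs each. Of 34 genes measured in beta cells, 7 were higher in the CDS cells, beside 29.4% of all genes, and 11 were lower, beside 21.4%. A gene is counted as lower here at a ratio of CDS over saline of 0.8 or less, and as higher where the inverse ratio is 0.8 or less. Without the scaling between libraries, 16.7% of all genes measured in beta cells were higher and 37.9% lower, and 2 of the 34 members were higher and 18 lower. The median log2 ratio was -0.12 over the members and 0.05 over all genes measured. Cadps was at 352 CPM in CDS and 624 CPM in saline beta cells, a ratio of 0.564 (0.553 to 0.575). Rims2 was at 284 CPM in CDS and 428 CPM in saline beta cells, a ratio of 0.663 (0.649 to 0.678). Both intervals lie under 1, so these differences between the libraries are larger than counting error.

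Cadps2 had a ratio of 0.634 (0.597 to 0.674) and Unc13b one of 0.684 (0.658 to 0.711). Snap25 was at 268 CPM in CDS and 351 CPM in saline beta cells, a ratio of 0.762 (0.745 to 0.779). Exph5 and Rph3al, both RAB effectors, had ratios of 0.764 (0.729 to 0.801) and 0.785 (0.767 to 0.804). The other 4 genes at or under 0.8 were Doc2b, Syt1, Rab3c and Sytl2, all under 10.2 CPM in beta cells.

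On the higher side, Vamp8 was at 232 CPM in CDS and 134 CPM in saline beta cells, a ratio of 1.73 (1.67 to 1.78). Rab3a was at 123 CPM in CDS and 80.4 CPM in saline beta cells, a ratio of 1.53 (1.47 to 1.6). Stx4a, Vamp2 and Vamp3 had ratios of 1.35 (1.26 to 1.45), 1.32 (1.27 to 1.37) and 1.32 (1.24 to 1.41). Syt4 was at 406 CPM in CDS and 321 CPM in saline beta cells, a ratio of 1.26 (1.24 to 1.29), and Stxbp2 had a log2 ratio of 0.32. The main insulin granule effector Sytl4 lay between the limits at 0.854 (0.828 to 0.881), as did Rab27a at 0.843 (0.821 to 0.864), Syt7 at 0.877 (0.857 to 0.899) and Syt13 at 0.85 (0.837 to 0.862).

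These ratios followed the span of the gene, as did those of all genes. In the fifth of genes with the shortest spans (median 3.82 kb), the median log2 ratio in beta cells was 0.49 over all genes and 0.62 over 3 members. In the fifth with the longest spans (median 130 kb), it was -0.35 over all genes and -0.55 over 11 members. Vamp2 (3.9 kb) and Rab3a (4 kb) belong to the short group, and Cadps (451 kb, chr14:12372563-12823079), Rims2 (486 kb) and Cadps2 (577 kb) to the long one. After the running median of the 500 genes nearest in span was subtracted, 3 members were counted as higher (Stx4a 1.29, Vamp8 1.3, Rab3b 1.26) and 3 as lower (Cplx2 0.778, Sytl2 0.608, Doc2b 0.771). Of the lower genes, Doc2b had 248 CDS and 324 saline UMIs in beta cells, and Sytl2 under 50 in each library. Cplx2 had 12718 and 14301. Over all genes, 17.9% were higher and 18.1% lower after the subtraction. On that scale Rims2 was at 1, Rab3a at 1.08, Snap25 at 0.868 and Cadps at 0.854. The median log2 ratio over the members was then -0.01. The CDS beta cells also held more UMIs, a lower mitochondrial share (median 1.39% and 2.55% in CDS and saline cells) and a higher insulin share (40.3% and 34.5%). The part of these differences in the gene ratios was not tested.

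**Figure D4:**
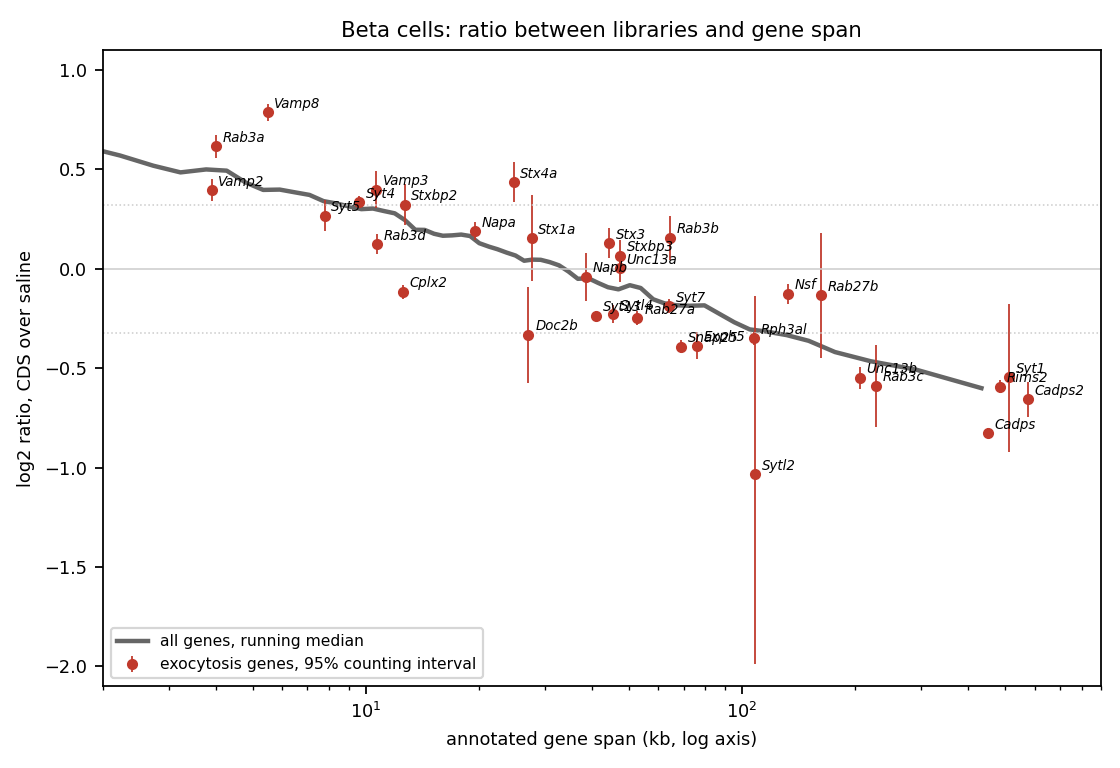
Log2 ratio of CDS over saline beta cells for each exocytosis gene (red, with 95% counting intervals) against its annotated span (kb, log axis), with the running median of all genes in grey and dotted lines at the limits for lower (0.8) and higher (its inverse). Most genes lie near the grey line, with Vamp8 and Stx4a above it and Cplx2 below.

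The other endocrine classes come from the same 2 libraries and are not independent of the beta cells. In alpha cells 5 of 34 measured genes were higher, beside 24.8% of all genes, and 9 lower, beside 16%. In delta cells 2 of 33 were higher, beside 22.9%, and 9 lower, beside 18.6%. In PP cells 4 of 31 were higher, beside 27.4%, and 11 lower, beside 26.4%. Without the scaling between libraries, 3 members were higher and 15 lower in alpha cells, beside 18.6% and 23.8% of all genes, and 0 were higher and 14 lower in delta cells, beside 15.6% and 27.7%. After subtraction of the running median the counts on the scaled values were 1 and 4 in alpha, 1 and 5 in delta, and 3 and 7 in PP cells. Over all genes, 13.3% were then higher and 13.8% lower in alpha cells, and 13.7% and 13.8% in delta cells. In PP cells 1541 and 1609 of all 8739 genes measured were.

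Snap25 had ratios of 0.773 (0.726 to 0.823) in alpha, 0.805 (0.733 to 0.884) in delta and 0.785 (0.694 to 0.886) in PP cells. Cadps had ratios of 0.657 (0.631 to 0.684), 0.535 (0.445 to 0.643) and 0.588 (0.537 to 0.642) in alpha, delta and PP cells. The delta cell value rests on few cells, as given above. Rims2 had ratios of 0.773 (0.743 to 0.805), 0.714 (0.668 to 0.763) and 0.701 (0.634 to 0.775) in the same classes. All 3 genes thus had ratios under 1 in every endocrine class, with Snap25 in delta cells just short of the limit for lower, but after subtraction of the running median Rims2 turned to between 1 and 1.1 in all 4 classes.

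Vamp8 was higher in the CDS cells of every endocrine class, at ratios of 1.6 (1.44 to 1.77) in alpha, 1.29 (1.15 to 1.46) in delta and 1.5 (1.26 to 1.79) in PP cells. After subtraction of the running median these were 1.235, 1.025 and 1.099, of which none is past the limit for higher. The 6 macrophage markers moved the same way in 3 of the 4 classes, with summed levels of 69.8 CPM in CDS and 35.5 CPM in saline alpha cells, 77.9 and 46.6 CPM in delta cells, 47.2 and 55 CPM in PP cells, and 78.3 and 31.4 CPM in beta cells. All 6 were above 0 except Adgre1 in saline alpha and CDS PP cells, and C1qc, Adgre1 and Csf1r in saline delta cells. In macrophages the markers stood at 12520 and 7609 CPM, beside the Vamp8 levels given above, and their part in the Vamp8 ratios was not tested. Some genes went different ways. Rab3b had a ratio of 0.681 (0.549 to 0.845) in alpha cells and 1.11 (1.03 to 1.2) in beta cells. Rab3a, at 1.53 (1.47 to 1.6) in beta cells, had 1.04 (0.899 to 1.21) in delta cells. Among the genes that mark a class, Rab3c in alpha cells had a ratio of 0.825 (0.774 to 0.879), Rab27b in alpha cells 0.732 (0.637 to 0.841) and Syt1 in delta cells 0.852 (0.793 to 0.915). The difference of a ratio between classes was not tested.

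**Figure D5:**
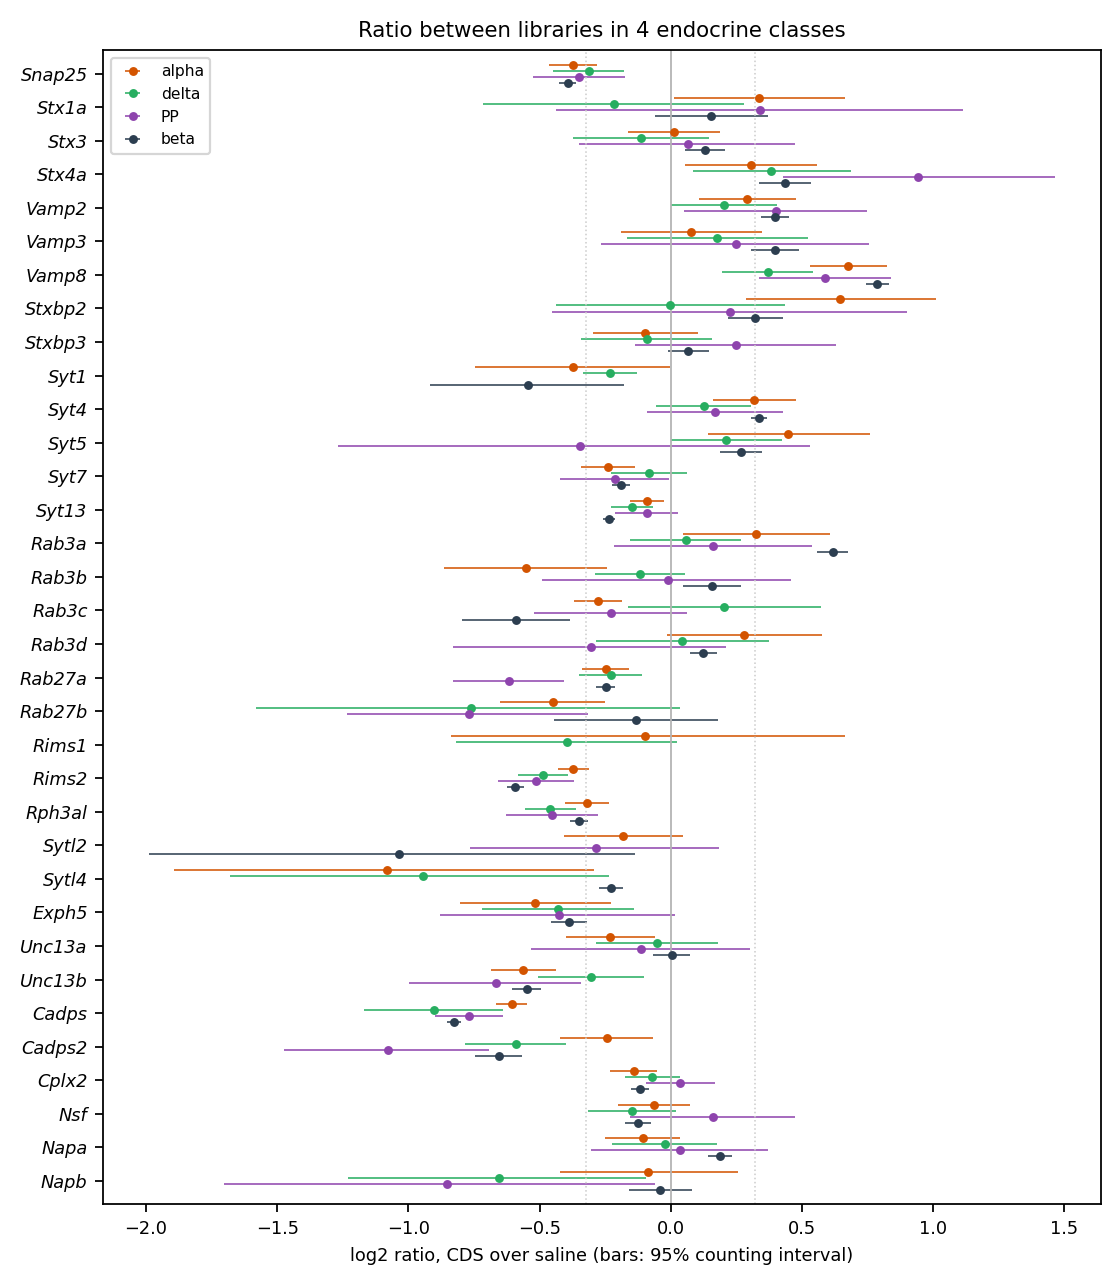
Log2 ratio of CDS over saline cells (points, with 95% counting intervals) for each exocytosis gene that reached 20 CPM in an endocrine class, in alpha, delta, PP and beta cells; dotted lines mark the limits for lower (0.8) and higher (its inverse). Cadps, Rims2, Rph3al and Snap25 lie left of 0 in all 4 classes, and Vamp2, Vamp8 and Stx4a lie right of it; Rims2 and Vamp2 change sides in all 4 once the running median over span is subtracted.

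In macrophages 10 members were measured, with 4 higher, beside 29.2% of all genes, and 3 lower, beside 21.8%. In endothelial cells 16 were measured, with 4 higher, beside 29.5%, and 7 lower, beside 18.8%. Vamp2, Vamp3 and Vamp8 were among the higher in both, with Vamp8 at 1.29 (1.09 to 1.53) in macrophages and 1.28 (1.08 to 1.52) in endothelial cells. After subtraction of the running median, 0 members were higher and 2 lower in macrophages, and 0 were higher and 5 lower in endothelial cells. Over all genes, 1248 of 6003 were then higher and 1297 lower in macrophages, and 1283 of 8194 higher and 1542 lower in endothelial cells. Several of the lower ones in endothelial cells, such as Rims2 and Cadps, are endocrine genes whose level there was under 20 CPM.

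A wider list of 95 other genes of regulated secretion was set beside the 36 in beta cells. Of these, 85 were measured, with 10 higher, beside 29.4% of all genes, and 26 lower, beside 21.4%. Their median log2 ratio was -0.03. Those with the lowest ratios at 20 CPM or more were Ptprn2, a granule membrane protein, at 0.516 (0.511 to 0.521), Erc2, an active zone protein, at 0.526 (0.51 to 0.543), and Rimbp2, which binds RIM proteins, at 0.55 (0.535 to 0.564). Their spans were 791, 856 and 196 kb. The highest were Rab11a, a recycling RAB, at 1.51 (1.45 to 1.57), Vti1b, an endosomal SNARE, at 1.44 (1.39 to 1.49), and Napg, another NSF adaptor, at 1.37 (1.29 to 1.46). After subtraction of the running median, 14 of the 85 were higher, beside 17.9% of all genes, and 12 lower, beside 18.1%.

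Beta cells of each library also differed among themselves in step with insulin RNA. Cells were ranked by the share of UMIs from insulin genes, and the highest quartile (median 50.4% in the CDS and 42.6% in the saline library) was set against the lowest (26.9% and 26.1%). Rab3a was at 135 CPM in the highest and 94.8 CPM in the lowest quartile of CDS cells, and at 103 and 72.8 CPM in saline cells, ratios of 1.43 (1.32 to 1.54) and 1.42 (1.29 to 1.55). Rph3al ran the other way, at 0.707 (0.671 to 0.745) and 0.711 (0.68 to 0.744). Unc13a was at 0.731 and 0.728, Rims2 at 0.597 and 0.738, and Cadps2 at 0.694 and 0.623. These ratios also followed gene span: the genes nearest in span to Rims2 and Cadps2 had a median log2 ratio of -0.63 in CDS and -0.35 in saline cells, against -0.74 and -0.44 for Rims2 and -0.53 and -0.68 for Cadps2. Cadps2 thus lay above that median in CDS cells and below it in saline cells. For Unc13a the log2 ratios were -0.45 and -0.46, beside medians of -0.21 and -0.09. The median log2 ratio over 33 members was -0.2 in CDS and -0.13 in saline cells, beside -0.12 and -0.04 over all genes. Sytl4 did not go one way, at 1.01 (0.947 to 1.09) in CDS and 1.36 (1.28 to 1.44) in saline cells. The quartiles differed in depth too, with median UMIs per cell of 32480 in the highest and 21330 in the lowest quartile of CDS cells, and the part of depth was not tested.

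Spread between beta cells was read as the Fano factor, the variance over the mean, in cells thinned to 5000 UMIs of the counted genes (3221 of 3662 CDS and 4532 of 4935 saline beta cells reached that depth). Sytl4 had a Fano factor of 1.35 in CDS and 1.49 in saline cells, beside medians of 1.08 and 1.13 for the 100 genes nearest in mean. The 90th percentile of those genes was 1.18 in CDS and 1.68 in saline cells, so Sytl4 was past it only in CDS cells. Rab3c had 1.32 and 1.33, beside 1.03 and 1.03, at a low mean. In CDS cells 75 of 3662 beta cells held at least 50% of its UMIs, and in saline cells 113 of 4935 did. Cadps2 had 1.15 and 1.29, beside 1.03 and 1.04. Rab3c and Cadps2 were past the 90th percentile of their like genes in both libraries. A Fano factor above that of like genes describes uneven RNA among cells that passed the insulin gate, in which doublets and misplaced cells were not counted.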

How the data were processed

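Single-cell RNA was measured in 2 samples, 1 library per group. The deposited matrices hold raw UMI counts per gene and barcode; per the file headers they come from Cell Ranger 7.1.0. Per the submitters' processing notes, Seurat 4, edgeR and build mm10 were also used. The counting of intron reads is not stated in them. The protocol names both v3.1 and v2 chemistry.

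Barcodes with at least 500 genes, 1000 UMIs and at most 20% mitochondrial UMIs were kept, and Scrublet doublets were removed (Scanpy 1.11.5, expected rate 0.8% per 1000 cells), which left 6159 CDS and 10977 saline cells. Hormone gates used a cutoff per library between the free-RNA share in immune cells and the share of the top 0.5% of cells; a cell needed 3 times the quotient of every other hormone. Other classes needed at least 5 marker UMIs and 2 times those of the next class. Cells with mixed hormones (288 and 232) and ungated cells (224 and 1931) were left out. Cells gated on ductal markers were not used as a class, since they held endocrine genes. Not every gene listed to check the classes is reported here.

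UMIs were summed per class and library and scaled with TMM factors (edgeR 4.0.16, R 4.3.3). A gene needed 50 UMIs in all and some in each library to be measured, and ratios needed 100 cells per library. Limits of 0.8 and its inverse, and a fold of 2 between classes, are descriptions, not tests. Positions and spans came from GENCODE vM21, which matched 32235 gene IDs, and promoter windows from RefSeq. The ratio and interval code was tested on simulated data. The members, lists and gates were chosen with earlier results of these data known; the granin scale and the promoters shown were chosen after the values were seen. All 36 genes are given in the order of their roles, with levels for those of at least 20 CPM in an endocrine class; of the other secretion genes, those with the 3 highest and the 3 lowest ratios are named, from genes of 20 CPM or more. Further software was SciPy 1.17.1, pandas 2.3.3, matplotlib 3.10.9, NumPy 2.4.6 and Python 3.11.15. Alternatives changed the gates, filters, doublets, scaling, denominator, cell weights, depth, minimum counts and gene length.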

Additional observations from a re-analysis of the deposited data

Results flagged for a closer look

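Cells gated on ductal markers were kept out of the comparisons and still held the exocytosis genes at a summed level of 2708 CPM in the CDS library (67 cells) and 3155 CPM in the saline library (85 cells), above the lymphoid values of 717 and 1057 CPM. They carried Sox9 at 183 and 170 CPM and Krt19 at 346 and 375 CPM, and also granins at 8315 and 6287 CPM, against 11680 and 12540 CPM over the endocrine classes. Of the other gate markers, Krt7 was at 825 and 808 CPM in them, but also at 564 and 464.5 CPM in beta cells. Cftr was at 20.7 and 33 CPM and Mmp7 at 205 and 341 CPM in the cells so gated. What these cells are was not tested.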

How the results depend on the processing

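Of the counts of genes past a limit, 153 stayed within 1.5 times over the alternatives and 20 did not. CPM without TMM factors moved the median log2 ratio of all genes to -0.18 in beta, -0.07 in alpha and -0.09 in delta cells, from 0.05, 0.03 and 0.02, and the split of all genes in beta cells to 16.7% higher and 37.9% lower; 2 members were then higher and 18 lower in beta cells, 3 and 15 in alpha cells, and 0 and 14 in delta cells. The members' median in beta cells was then -0.35. Without the trend over gene span, 3 members were higher and 3 lower in beta cells, 1 and 4 in alpha cells, and 1 and 5 in delta cells. The shares over all genes were then 17.9% and 18.1%, 13.3% and 13.8%, and 13.7% and 13.8%. Thinned cells gave 2 of 31 higher in beta cells, beside 26.2% of all genes, and 5 of 25 higher in delta cells, beside 24.6%. They gave 2 higher and 3 lower in PP over beta cells. The minimum of 20 CPM left 7 of 28 lower in beta cells, beside 16.4% of all genes. With all genes in the denominator, 10 members were higher in alpha over beta cells, 3 lower in delta over beta cells and 3 lower in PP over beta cells, as insulin then takes a large part of the beta cell total.

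Sign turns (log2) were counted only for ratios past a limit in beta, alpha and delta cells and for folds of at least 2 in both libraries. Among these, the sign turned in 12 ratios between libraries and 2 folds between classes. Other ratios also turned sign, such as Vamp2 in alpha and delta cells without the span trend, and were not counted. On the scale without the span trend the counted turns were, in beta cells, Vamp2 at -0.11, Syt1 at 0.0528 and Rims2 at 0.0062. In alpha cells they were Syt1 at 0.0332, Rab3a at -0.127 and Rims2 at 0.0362, and in delta cells Rims1 at 0.0963 and Rims2 at 0.0061. Thinning turned Rab3c in beta cells to 0.13, Stx1a in alpha cells to -0.11 and Syt1 in alpha cells to 0.17, and Doc2b in PP over beta cells to 1.7 in the CDS and 0.12 in the saline library, where PP cells had no UMI. Cluster labels turned Syt1 in beta cells to 0.0934. The cause was not tested.

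No paired analysis was possible because each group has 1 library. Cluster labels gave no PP value, since no cluster was mostly PP cells, and Scrublet marked 0 and 1 cells under the looser (CDS) and stricter (saline) filters, where it had not worked. Depth limits genes under about 20 CPM in PP and lymphoid cells.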
